A study of Arabidopsis thaliana with 6 samples.

Results

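The genes described are 9 enzymes that cleave sucrose in Arabidopsis thaliana, namely the sucrose synthases SUS1 (AT5G20830), SUS2 (AT5G49190), SUS3 (AT4G02280), SUS4 (AT3G43190), SUS5 (AT5G37180) and SUS6 (AT1G73370), the cytosolic invertases CINV1 (AT1G35580) and CINV2 (AT4G09510), and the cell wall invertase CWINV1 (AT3G13790). They were picked out by locus identifier, with no threshold on a measured value, and all 9 were found among the 32678 genes listed. All 9 also passed the filter on low counts that left 17720 genes for testing. Read counts per gene came from hand-dissected root meristems of seedlings 5 days old. The double mutant, labelled papl1-1papl2 and by its other name cog1-6cdf4, gave 3 libraries, and the wild type, labelled Col0, gave 3. Both genotypes grew at 23 °C under long days on agar medium that held 0.5x MS salts and 1% sucrose, so every library came from plants supplied with external sugar. The labels do not say what the alleles do to the genes, nor whether replicates came from separate plates or days, so p-values measure only the spread between these libraries, which were the best 3 per genotype at quality control.

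Sucrose reaches the root tip through the phloem and has to be split before growing cells can use it. Sucrose synthase splits it reversibly with UDP into UDP-glucose and fructose, which keeps the energy of the bond and feeds cell wall synthesis. Invertase hydrolyses it irreversibly to glucose and fructose, in the cytosol, the vacuole or the cell wall depending on the isoform. In Arabidopsis, loss of both CINV1 and CINV2 strongly reduces root growth, SUS1 and SUS4 are known as isoforms that respond to low oxygen, and SUS5 and SUS6 are known from sieve elements of the phloem.

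Libraries held 17849704 to 20621826 counts in papl1-1papl2 and 19322466 to 20914576 counts in Col0, so that a detection floor of 3 counts lay at 0.143 to 0.168 CPM (counts relative to library size, TMM-scaled) and covers counting error only. The root meristem markers (PLT1, PLT2, WOX5, SHR, SCR and CYCB1;1) were detected in all 6 libraries, except WOX5 in replicate 1 of Col0 (2 counts, under the floor). Their summed level was 212 to 228 CPM in papl1-1papl2 and 218 to 224 CPM in Col0. Green shoot markers summed to 3.01 to 4.55 CPM in papl1-1papl2 and 3.03 to 4.69 CPM in Col0. The locus of the first mutated gene, AT1G29160, averaged 19.5 ± 2.72 CPM in libraries labelled papl1-1papl2 and 11.5 ± 0.977 CPM in libraries labelled Col0 (SD, n = 3 each). The locus of the other, AT2G34140, averaged 5.99 ± 0.423 CPM in libraries labelled papl1-1papl2 and 4.02 ± 0.484 CPM in libraries labelled Col0 (SD, n = 3 each). In the edgeR quasi-likelihood test AT1G29160 rose (adjusted p = 0.0137, up to 0.0755 on leaving out 1 library) and AT2G34140 did not pass (adjusted p = 0.0952), and at both loci every library labelled as mutant lay above every library labelled Col0. Counts per gene do not tell intact from disrupted transcripts, so every direction given here rests on the labels. Replicate 3 of papl1-1papl2 stood apart from the other libraries on the second principal component, so values without it are given where they matter.

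None of the 9 genes was called changed between the genotypes. The edgeR quasi-likelihood test with Benjamini-Hochberg adjustment over all 17720 tested genes called 0 of 9 at an adjusted p under 0.05, against 2.76% of the genes tested (2.23% higher and 0.525% lower in papl1-1papl2). Before adjustment 0 of 9 had a p under 0.05 in that test, against 15.9% of the genes tested, and DESeq2 also called 0 of 9. Log2 fold changes of papl1-1papl2 over Col0 were positive for 7 of 9 genes with a median of 0.04, beside 50.8% and a median of 0.00 over all tested genes. What separated the 9 genes was how closely the data bound that difference, from narrow intervals around no change for CINV1 and CWINV1 to a span of several-fold for SUS4.

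**Figure D1:**
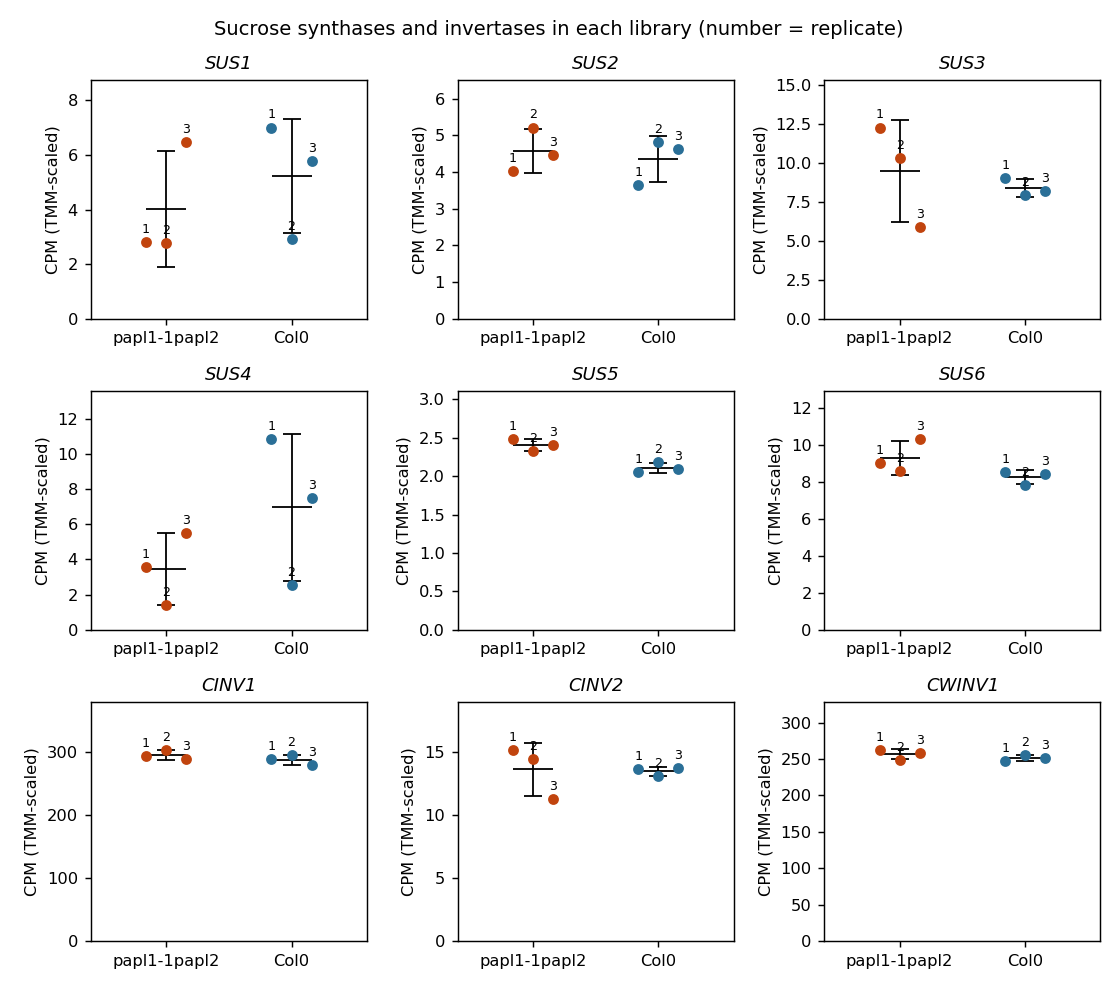
Level of each of the 9 genes in every library, in TMM-scaled CPM on axes that start at 0, with papl1-1papl2 on the left and Col0 on the right of each panel. Points are libraries numbered by replicate, and bars are the mean and SD of 3 libraries. CINV1 and CWINV1 hardly varied, while SUS4 ranged from 1.39 to 5.47 CPM in papl1-1papl2 and from 2.53 to 10.9 CPM in Col0.

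CINV1, the more abundant of the cytosolic invertases, had 293, 303 and 287 CPM in papl1-1papl2 against 288, 294 and 278 CPM in Col0. The 6 values overlapped, and the highest was 1.09 times the lowest, a ratio smaller than that of nearly all tested genes (percentile 4.07). The fold change was 1.03, with a 95% confidence interval of 0.949 to 1.11 (edgeR quasi-likelihood test, adjusted p = 0.779). CWINV1, which splits sucrose in the apoplast, had 263, 249 and 258 CPM in papl1-1papl2 and 247, 255 and 252 CPM in Col0. Its libraries overlapped as well, and the ratio of highest to lowest was 1.06 (percentile 1.17), beside a median ratio of 1.29 over all tested genes. Those percentiles compare genes of all levels. CINV1 and CWINV1 were at percentiles 96.7 and 96.1 of level, where counting error is smaller. The fold change of CWINV1 was 1.02 (95% confidence interval 0.945 to 1.1; edgeR quasi-likelihood test, adjusted p = 0.837). For both genes, a difference beyond the bounds of those intervals lay outside what these libraries allow at that confidence level.

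CINV2, the other cytosolic invertase, had 15.2, 14.5 and 11.3 CPM in papl1-1papl2, against 13.6, 13.1 and 13.8 CPM in Col0. Replicate 3 of papl1-1papl2 was the lowest of the 6 libraries, and the other libraries of that genotype were the highest. The fold change was 1.01 (95% confidence interval 0.841 to 1.22; edgeR quasi-likelihood test, adjusted p = 0.960). Without that library it was 0.13 on the log2 scale (adjusted p = 0.495 in the same test).

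Levels of different genes were compared per length, as RPKM, which is the CPM divided by the exon length in kilobases. CINV1 averaged 108 ± 2.85 RPKM in papl1-1papl2 and 106 ± 2.95 RPKM in Col0, and CWINV1 averaged 100.5 ± 2.76 RPKM in papl1-1papl2 and 98.5 ± 1.59 RPKM in Col0 (SD, n = 3 each). In each genotype the lowest CINV1 library was above the highest CWINV1 library. The next gene, CINV2, was far below both at 5.99 ± 0.915 RPKM in papl1-1papl2 and 5.92 ± 0.157 RPKM in Col0, so that CINV1 held 18.4 times the level of CINV2 in papl1-1papl2 and 17.9 times in Col0. All 6 sucrose synthases were lower still, and in no library did one reach the lowest CINV2 value of its genotype.

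Summed over SUS1 to SUS6, the level was 10.5, 9.37 and 10.6 RPKM in papl1-1papl2 and 12.7, 8.66 and 11.3 RPKM in Col0. The libraries of papl1-1papl2 lay within the range of Col0. The cytosolic invertases CINV1 and CINV2 together averaged 114 ± 3.52 RPKM in papl1-1papl2 and 112 ± 2.81 RPKM in Col0 (SD, n = 3 each). The ratio of sucrose synthase transcripts to those of CINV1 and CINV2 was 0.0890 ± 0.00849 in papl1-1papl2 and 0.0976 ± 0.0194 in Col0 (SD, n = 3 each). In transcript level, CINV1 and CINV2 together therefore far exceeded sucrose synthase in both genotypes, while enzyme activity was not measured. A/N-InvB, another alkaline/neutral invertase, averaged 56.6 CPM in papl1-1papl2 and 60.4 CPM in Col0 and is not in that sum.

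**Figure D2:**
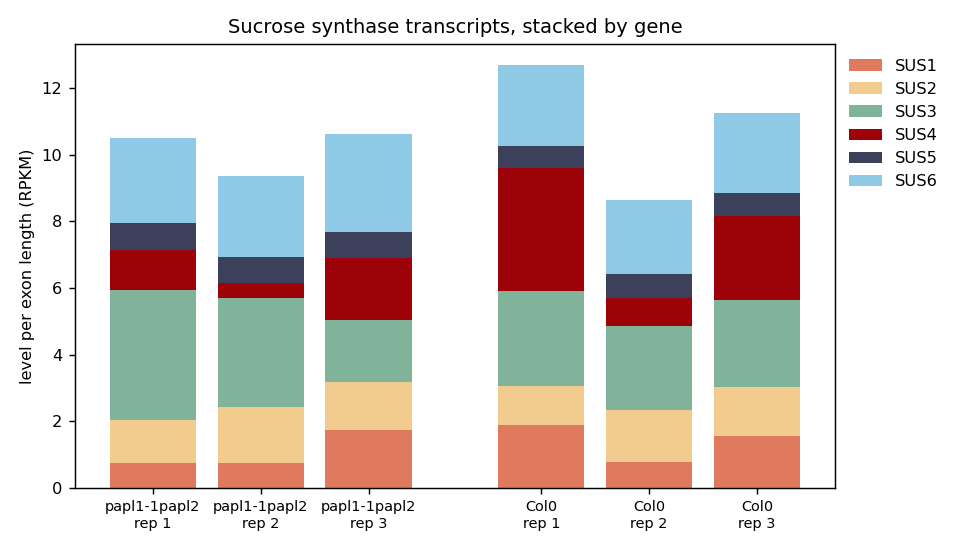
Summed transcript level of the 6 sucrose synthases in each library, in RPKM, with the 3 libraries of papl1-1papl2 on the left and those of Col0 on the right. Each bar is 1 library and each colour 1 gene. Together SUS3 and SUS6 held over 50% of the sum in replicates 1 and 2 of papl1-1papl2 and replicate 2 of Col0, and the SUS4 segment ranged from 5.01% to 17.5% of the bar in papl1-1papl2 and from 9.91% to 29% in Col0.

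Within the family the order of the low members was not fixed. SUS3 averaged 3.02 ± 1.04 RPKM in papl1-1papl2 and 2.67 ± 0.179 RPKM in Col0, and SUS6 averaged 2.65 ± 0.260 RPKM in papl1-1papl2 and 2.36 ± 0.108 RPKM in Col0 (SD, n = 3 each). In papl1-1papl2 these were followed by SUS2 at 1.46, SUS4 at 1.18, SUS1 at 1.08 and SUS5 at 0.785 RPKM. In Col0, SUS4 shared its place with SUS6 at 2.36 RPKM, followed by SUS1 and SUS2 at 1.4 RPKM each and by SUS5 at 0.688 RPKM. The places of SUS4 depended on the length used. Per longest coding sequence, SUS1 was above SUS4 in papl1-1papl2 (12.5% and 10.6% of the family sum). By that length SUS6 was above SUS4 in Col0 (21.3% and 19.3%). SUS1, SUS2 and SUS4 overlapped one another between libraries in both genotypes, and SUS3 and SUS6 overlapped in papl1-1papl2 but not in Col0. SUS5 lay below all others in Col0 but overlapped SUS1 and SUS4 in papl1-1papl2. SUS3 made up 29.9 ± 10.7% of the family sum in papl1-1papl2 and 25.0 ± 3.65% in Col0, while SUS4 made up 11.3 ± 6.23% in papl1-1papl2 and 20.5 ± 9.70% in Col0 (SD, n = 3 each). These shares are descriptions, and the gap between the SUS4 means is smaller than the SD in Col0.

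SUS4 varied more than any other of the 9 genes. It had 3.54, 1.39 and 5.47 CPM in papl1-1papl2, from 74, 25 and 98 counts, and 10.9, 2.53 and 7.48 CPM in Col0, from 206, 51 and 157 counts. Replicate 2 was the lowest library of each genotype, and the genotypes overlapped. The highest value was 7.83 times the lowest (percentile 98.7 of tested genes), and within a genotype it was 3.95 times in papl1-1papl2 and 4.29 times in Col0. On the log2 scale the difference was -1.0 (SE 0.53, 95% confidence interval -2.19 to 0.20). The edgeR quasi-likelihood test gave a p of 0.0913, the smallest among the 9 genes, and 0.408 after Benjamini-Hochberg adjustment. SUS1, its closest relative, with 84.3% identical coding sequence, had 2.82, 2.77 and 6.48 CPM in papl1-1papl2 and 7.01, 2.93 and 5.76 CPM in Col0. Here too the genotypes overlapped, with replicate 3 of papl1-1papl2 and replicates 1 and 3 of Col0 high and the other libraries low. For SUS1 the log2 fold change was -0.38 (SE 0.39, 95% confidence interval -1.26 to 0.49; edgeR quasi-likelihood test, adjusted p = 0.700).

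Known low-oxygen response genes of Arabidopsis varied between the same libraries. A list of 12 such genes, which holds no sucrose synthase, had 11 tested members, of which 0 were called by the edgeR quasi-likelihood test and 2 had an unadjusted p under 0.05. Without replicate 3 of papl1-1papl2 3 of them were called, and with a replicate block 1. Over all tested genes those fits called 1164 and 259, against 489 with all 6 libraries and no block. The median log2 fold change of the list was -0.36, and 1 of 11 was positive. Summed, the list had 73.1, 54.6 and 112 CPM in papl1-1papl2 and 165, 69.6 and 140 CPM in Col0, and these sums ranked the 6 libraries in the same order as SUS4. Taken singly, 0 of the 11 tested genes had that order, against 17 of all 17720 tested genes (0.0959%). The alcohol dehydrogenase ADH1 of fermentation had 8.28, 2.11 and 21.7 CPM in papl1-1papl2, against 33.8, 6.10 and 20.6 CPM in Col0. It was high in the 3 libraries in which SUS4 was high.

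Those 3 libraries, replicate 3 of papl1-1papl2 and replicates 1 and 3 of Col0, were the highest for 9 of the 11 tested genes (81.8%), against 845 of all 17720 tested genes (4.77%), a count chosen after the values were seen. The list's part in the variation of SUS4 and SUS1 was not tested, nor were oxygen levels measured. FTM1 (AT1G43800), a further gene of the list, had 6.94, 2.66 and 15 CPM in papl1-1papl2 and 39.5, 8.23 and 30.8 CPM in Col0. This is a difference of -1.68 on the log2 scale (edgeR quasi-likelihood test, adjusted p = 0.218), which passed the threshold without replicate 3 of papl1-1papl2 (adjusted p = 0.0231) and with the replicate number as a block (adjusted p = 0.0347). LBD41, a transcription factor of the same list, had 3.44, 4.05 and 8.10 CPM in papl1-1papl2 and 12.5, 6.89 and 15.5 CPM in Col0. Its difference of -1.17 on the log2 scale (adjusted p = 0.141 in the same test) also passed without that library (adjusted p = 0.00622). SUS4 at -1.46 and SUS1 at -0.90 on the log2 scale did not pass without it (adjusted p = 0.127 for each in the same test). Of the 10 alternatives, FTM1 passed in 2 and LBD41 in 1. With replicate 1 of Col0 left out the adjusted p of FTM1 was 0.559 in the same test. With replicate 3 of Col0 left out that of LBD41 was 0.428.

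**Figure D3:**
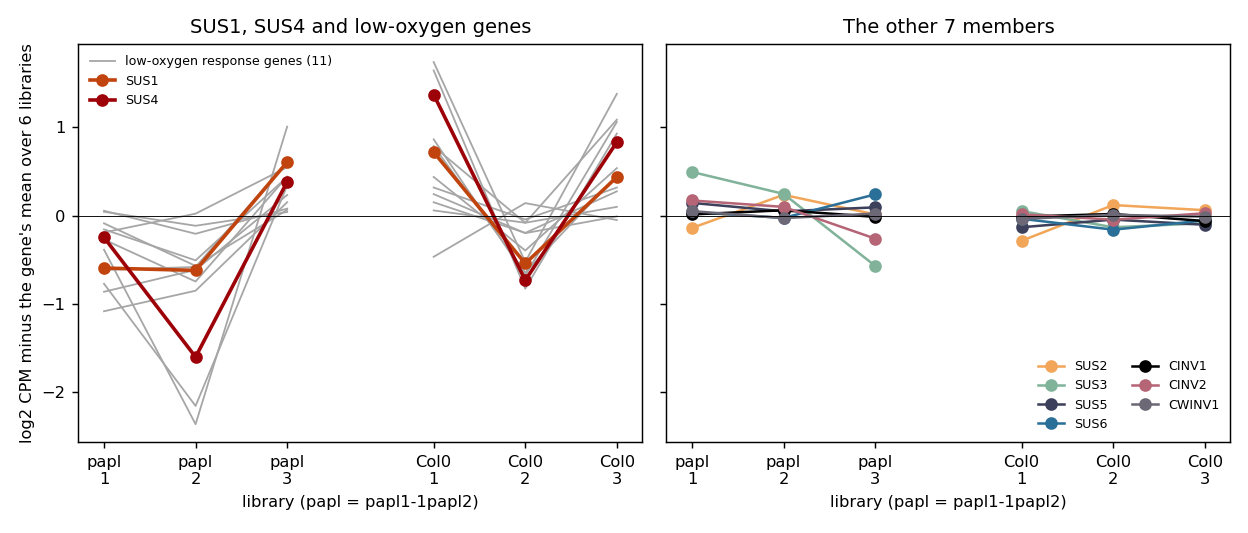
Level of each gene in each library as log2 CPM minus the gene's mean over 6 libraries, with papl1-1papl2 on the left and Col0 on the right of each panel. The left panel shows SUS1, SUS4 and the 11 tested low-oxygen response genes, and the right panel shows the other 7 of the 9 genes on the same scale. SUS4 and most low-oxygen genes were high in replicate 3 of papl1-1papl2 and in replicates 1 and 3 of Col0, whereas SUS3 and CINV2 were lowest in replicate 3 of papl1-1papl2.

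The 250 bases upstream of the annotated starts of SUS1 and SUS4 are shown because these genes moved together between libraries. The GT-motif AAACCA, described in the anaerobic response element of the Arabidopsis ADH1 promoter, was searched on both strands and is in capitals where found. The windows are chr5:7055399-7055648 for SUS1 and chr3:15184106-15184355 for SUS4, both on the minus strand of the TAIR10.1 assembly with RefSeq gene starts, written 5′ to 3′ along the gene.
SUS1: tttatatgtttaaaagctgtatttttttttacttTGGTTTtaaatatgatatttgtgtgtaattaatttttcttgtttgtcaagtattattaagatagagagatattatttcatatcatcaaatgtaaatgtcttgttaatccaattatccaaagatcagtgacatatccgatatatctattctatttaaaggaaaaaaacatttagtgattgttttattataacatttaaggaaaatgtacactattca
SUS4: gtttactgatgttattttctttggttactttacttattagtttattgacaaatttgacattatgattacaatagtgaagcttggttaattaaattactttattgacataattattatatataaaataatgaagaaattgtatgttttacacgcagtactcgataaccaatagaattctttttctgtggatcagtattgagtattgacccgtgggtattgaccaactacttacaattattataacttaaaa
The SUS1 window holds 1 match, on the reverse strand (TGGTTT), and the SUS4 window holds 0. Over the 9 genes, 4 windows hold a match (SUS1, SUS2, CINV2 and CWINV1), against 27.3% of 27443 windows of the same length. Annotated transcript starts lie up to 1117 bp apart for SUS1 and 1441 bp apart for SUS4, so a window from the outermost start may miss the start used in this tissue.

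SUS3, known in Arabidopsis from maturing seeds and guard cells, had 12.2, 10.3 and 5.87 CPM in papl1-1papl2 and 9.01, 7.94 and 8.19 CPM in Col0. Replicate 3 of papl1-1papl2 was the lowest of all libraries, and the other libraries of that genotype were the highest. On the log2 scale SUS3 differed by 0.18 (SE 0.23; edgeR quasi-likelihood test, adjusted p = 0.762). Without replicate 3 of papl1-1papl2 it differed by 0.43, still short of the threshold (adjusted p = 0.0742). Root hair markers (EXPA7, EXPA18, COBL9 and PRP3) summed to 11, 7.93 and 0.168 CPM in papl1-1papl2 and to 4.58, 4.56 and 4.48 CPM in Col0, and COBL9 made up most of the Col0 sum in each library. COBL9 had 165, 84 and 3 counts in papl1-1papl2 and 82, 48 and 93 counts in Col0. The other markers were uneven in both genotypes, since EXPA7 and EXPA18 were at 0 in replicate 3 of papl1-1papl2 and in replicate 3 of Col0, and PRP3 was at 0 in replicate 3 of papl1-1papl2 and in replicate 1 of Col0. None of the 3 tested root hair markers was called, and their part in the spread of SUS3 and CINV2 was not tested. In bulk tissue, fewer cells of a type and less RNA per cell cannot be told apart.

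SUS2, known from developing seeds, showed no such pattern. It had 4.02, 5.21 and 4.47 CPM in papl1-1papl2 and 3.64, 4.81 and 4.62 CPM in Col0, with replicate 1 the lowest in each genotype. The genotypes overlapped, and the fold change was 1.05 (95% confidence interval 0.792 to 1.38; edgeR quasi-likelihood test, adjusted p = 0.904).

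SUS5 and SUS6, the sieve element isoforms, were the only members of the 9 whose libraries did not overlap between genotypes. SUS5 had 2.49, 2.33 and 2.40 CPM in papl1-1papl2 and 2.06, 2.18 and 2.10 CPM in Col0. These came from 52, 42 and 43 counts in papl1-1papl2 and 39, 44 and 44 counts in Col0. The raw counts of SUS5 overlapped, so its separation appeared only after scaling. SUS6 had 9.0, 8.59 and 10.3 CPM in papl1-1papl2 and 8.54, 7.84 and 8.43 CPM in Col0. Every papl1-1papl2 library was above every Col0 library for both genes, narrowly so for SUS6, and 2 of 9 genes without overlap stand beside 21.5% of all tested genes (11.7% higher and 9.8% lower). Neither difference passed the edgeR quasi-likelihood test. On the log2 scale SUS5 differed by 0.19 (SE 0.19, adjusted p = 0.704) and SUS6 by 0.17 (SE 0.12, adjusted p = 0.530). Without replicate 3 of papl1-1papl2, the highest library for SUS6, that gene differed by 0.087 (adjusted p = 0.762 in the same test). Phloem markers, 7 genes in all, summed to 20.8, 21.1 and 20.9 CPM in papl1-1papl2 and to 16.2, 18.9 and 18.6 CPM in Col0. The callose synthase CALS7 was the largest term of that sum, at 10.2 ± 0.462 CPM in papl1-1papl2 and 8.28 ± 1.39 CPM in Col0 (SD, n = 3 each), and was not called. The phloem regulator APL, the next largest, had 5.04 CPM on average in papl1-1papl2 and 5.86 CPM in Col0 (log2 fold change -0.22, not called), and SEOR1, too low to be tested, had 0.144 CPM in papl1-1papl2 and 0.232 CPM in Col0. Log2 fold changes were positive for 5 of the 6 tested markers, beside 50.8% of all tested genes. Their median was 0.36, beside 0.00 over all tested genes. Of the 6 tested phloem markers 1 was called, the companion cell sucrose carrier SUC2, which averaged 1.16 ± 0.363 CPM in papl1-1papl2 and 0.264 ± 0.116 CPM in Col0 (SD, n = 3 each; edgeR quasi-likelihood test, adjusted p = 0.0394). SUC2 lost that call in 5 of the 10 alternative settings. Its level was low, with 18, 19 and 28 counts in papl1-1papl2 and 5, 3 and 8 counts in Col0, where replicate 2 was at the detection floor. The part of phloem content in the levels of SUS5 and SUS6 was not tested.

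**Figure D4:**
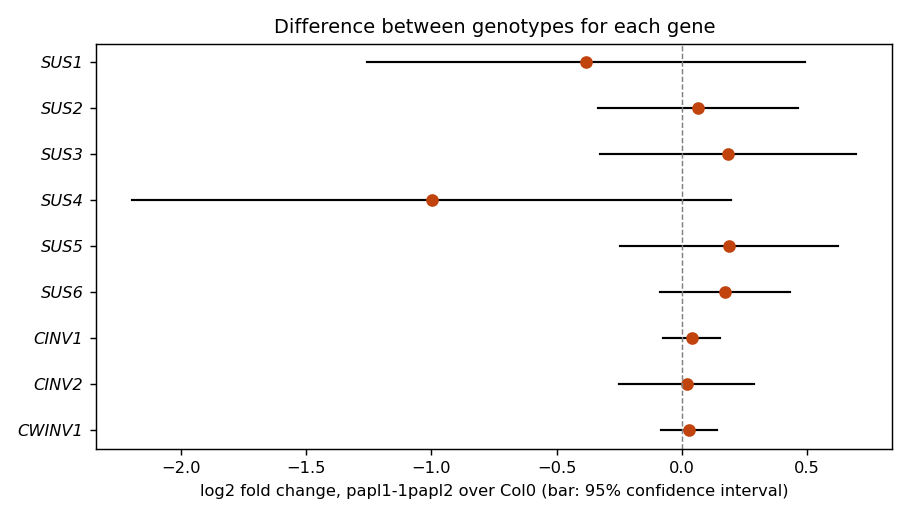
Log2 fold change of papl1-1papl2 over Col0 for each of the 9 genes, with 95% confidence intervals as bars and the dashed line at 0. All 9 intervals include 0. That of SUS4 runs from -2.19 to 0.20 on the log2 scale, and those of CINV1 and CWINV1 are the narrowest.

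Other enzymes that make, cleave or use sucrose were read from the same fit. Among the other alkaline/neutral invertases, 1 of 6 tested genes rose and 0 fell. That gene was A/N-InvC (AT3G06500), a mitochondrial invertase, with 59.8, 64.7 and 54.0 CPM in papl1-1papl2 and 46.4, 45.0 and 44.8 CPM in Col0. The groups did not overlap, and the difference was 0.39 on the log2 scale (SE 0.07; edgeR quasi-likelihood test, adjusted p = 0.0262). The call was lost in the fit with the replicate number as a block (adjusted p = 0.0688) and on leaving out any 1 of 5 libraries, where the adjusted p reached 0.128. It held without replicate 3 of papl1-1papl2 (adjusted p = 0.00157 in the same test).

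Of the pfkB-like carbohydrate kinases, the family of fructokinases, which act on the fructose that both enzyme types release, 1 of 4 tested loci rose and 0 fell. AT3G59480 had 2.92, 4.16 and 3.41 CPM in papl1-1papl2 and 1.16, 1.34 and 0.429 CPM in Col0. Its level was low, with 61, 75 and 61 counts in papl1-1papl2 and 22, 27 and 9 counts in Col0. All 3 libraries of papl1-1papl2 were above those of Col0, with a 3.58-fold difference, or 1.84 on the log2 scale (SE 0.35; edgeR quasi-likelihood test, adjusted p = 0.0291). With the replicate block the adjusted p was 0.0569, and it was 0.126 without replicate 2 of papl1-1papl2, 0.121 without replicate 1 of Col0 and 0.0634 without replicate 3 of Col0.

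Every other enzyme list, and that of the invertase inhibitors, had 0 calls in the edgeR quasi-likelihood test. Of 5 other genes named as cell wall invertases, 2 were tested (CWINV3 and CWINV6), and CWINV2 and CWINV4 were at 0 in all libraries. The annotation gives CWINV6 as a fructan exohydrolase, not as an invertase. Both vacuolar invertases were tested, and ATBETAFRUCT4 had 157, 149 and 121 CPM in papl1-1papl2 and 168, 149 and 188 CPM in Col0 (log2 fold change -0.24, adjusted p = 0.315 in that test). For the other vacuolar enzyme, AT1G62660, the log2 fold change was 0.14 (adjusted p = 0.452). There were likewise 0 calls among 1 tested invertase inhibitor, 5 hexokinases, 3 UDP-glucose pyrophosphorylases and 7 genes of sucrose synthesis. HXK1, the hexokinase that also senses glucose, differed by 0.09 on the log2 scale (adjusted p = 0.541). HKL2 (AT3G20040), annotated as a hexokinase, differed by 0.32 (adjusted p = 0.276 in the same test). Log2 fold changes were positive for 4 of the 5 tested hexokinases. UGP1, which interconverts UDP-glucose and glucose 1-phosphate, differed by -0.20 (adjusted p = 0.249). SPS2F, a sucrose phosphate synthase, differed by -0.61 (adjusted p = 0.162 in edgeR, but 0.0421 in DESeq2). SPP1, a sucrose phosphatase, differed by 0.18 (adjusted p = 0.252 in edgeR). It was the 1 positive log2 fold change among the 7 tested genes of sucrose synthesis.

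**Figure D5:**
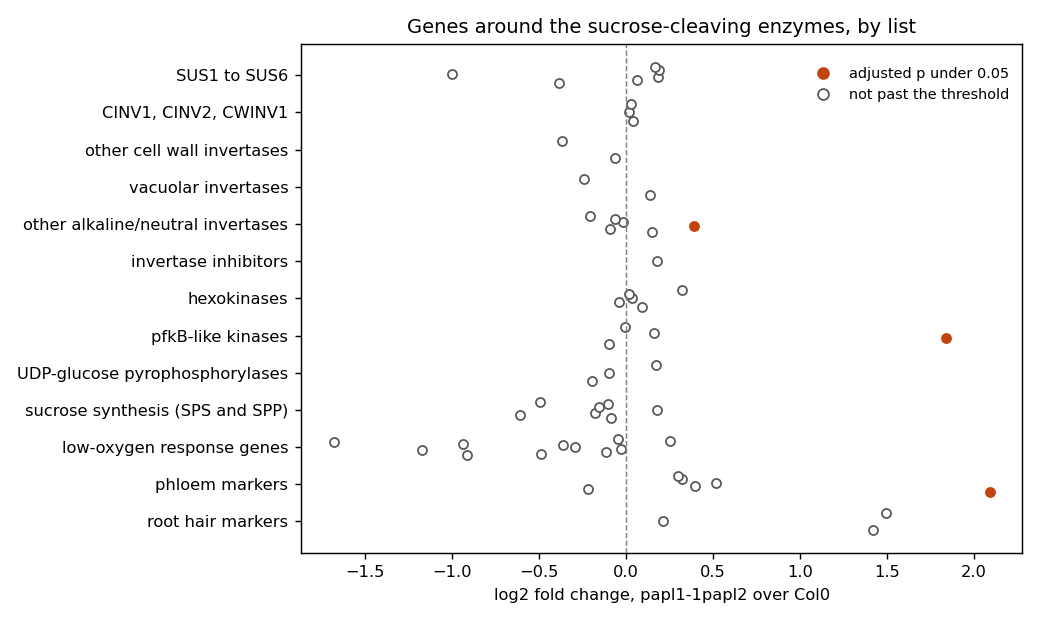
Log2 fold change of papl1-1papl2 over Col0 for each tested gene of the 9 enzymes and of the lists around them, 1 row per list. Filled points passed the edgeR quasi-likelihood test at an adjusted p under 0.05, and open points did not. The filled points are A/N-InvC at 0.39, the kinase locus AT3G59480 at 1.84 and the phloem marker SUC2 at 2.09.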

How the data were processed

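Polyadenylated RNA from 6 libraries was sequenced. The authors deposited 1 table of raw read counts per gene, with no normalisation per the file headers and values. The submitters' processing notes name TopHat2, HTSeq, DESeq, DESeq2 and the build TAIR10, without roles or versions. Annotation, read length and use of strand are not given in the sources used here. Groups came from the sample titles.

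The analysis used edgeR 4.0.16 under R 4.3.3. Low genes were removed with filterByExpr (minimum count 10, minimum total 15) and scaled by TMM. Genotype was the only term of the quasi-likelihood F test (glmQLFit, glmQLFTest), with Benjamini-Hochberg adjustment over 17720 genes and a threshold of 0.05. The SE was taken as the size of the log2 fold change over the root of F. DESeq2 1.42.0 was an alternative, as were its size factors, no filter, a replicate block and leaving out each library.

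Names, exon lengths and promoter windows came from the RefSeq annotation of TAIR10.1 (31912 identifiers matched, 766 did not). The mutated loci AT1G29160 and AT2G34140 came from general knowledge of these genes. None of the 9 genes overlaps another gene's exons or shares a stretch of 50 bases with another gene. The genes and lists were chosen with earlier results of these data known. Named genes were the 9, the mutated loci, the called genes of each list or else those with its smallest p-values, and the 3 tested genes nearest in profile to the member with the smallest p. ADH1 was named after its values were seen. Values were also given outside that rule, as for A/N-InvB, CALS7, APL, SEOR1, COBL9 and EXPA18. Some genes within the rule, such as UGP3, were not described.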

Additional observations from a re-analysis of the deposited data

How the results depend on the processing

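None of the 9 genes was called under any of the 10 alternatives, and 84 of their 90 log2 fold changes kept the direction given. The 6 that turned round came from leaving out 1 library, which gave -0.0474 to 0.150 for SUS2, -0.0495 to 0.430 for SUS3 and -0.0680 to 0.134 for CINV2. CWINV3 ranged from -0.170 to 0.0929 and C/VIF2 from -0.0800 to 0.429 in the same fits. The cause was not tested. Over all genes, 489 calls became 144 to 1164 when 1 library was left out: 1164 without replicate 3 of papl1-1papl2, 173 without its replicate 2, and 144, 276 and 155 without replicates 1, 2 and 3 of Col0. Same-numbered libraries did not deviate together over all genes (r = -0.107 to -0.00913). A check over all genes cannot settle whether the numbers pair the libraries for some genes. The fit with a replicate block called 259 genes. DESeq2 called 721, and calls were 74.2% to 92.3% higher in papl1-1papl2 over these settings. SUC2 lost its call in 5 of 10 alternatives, with an adjusted p of up to 0.183. Counts of 25 to 206 limit SUS4, and 3 libraries per genotype limit every comparison.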

Other observations

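The 3 tested genes whose profile over the 6 libraries lay nearest to that of SUS4 were AT1G12805, annotated as a nucleotide binding protein, HFR1, a basic helix-loop-helix factor, and AT3G05625, annotated as a tetratricopeptide repeat-like protein. Their root mean square differences from SUS4, on the log2 CPM scale after centring each gene on its mean, were 0.331, 0.375 and 0.406. AT1G12805 had 1.15, 0.887 and 2.46 CPM in papl1-1papl2 and 5.64, 1.54 and 4.67 CPM in Col0, high in the same 3 libraries as SUS4. HFR1 was at 0.0554 to 0.559 CPM in papl1-1papl2 and 0.198 to 0.714 CPM in Col0, and its lowest value, in replicate 2 of papl1-1papl2, was 1 count and below the detection floor of 3 counts. AT3G05625 was at that floor in the same library (0.166 CPM), so 2 of the 3 profiles rest in part on values at or under it. Root cap markers summed to 54.8 to 70.5 CPM in papl1-1papl2 and 69.1 to 74.0 CPM in Col0, and 0 of 3 were called by the edgeR quasi-likelihood test, while 2 of 3 had an unadjusted p under 0.05. Without replicate 3 of papl1-1papl2, 2 of 3 were lower in papl1-1papl2 in that test, SMB by -0.37 on the log2 scale (adjusted p = 0.0156) and NAC070, also known as BRN2, by -0.46 (adjusted p = 0.0254).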
